A study of Mus musculus with 8 samples.

Results

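The signalling route of the growth factor FGF4 was described through 10 genes out of the 18193 that the array annotation names by a single symbol. They were taken by gene symbol: the ligand Fgf4, the receptors Fgfr1 and Fgfr2, the feedback inhibitors Spry2, Spry4 and Spred1, the ERK phosphatases Dusp4 and Dusp6, and the transcription factors Etv4 and Etv5. The array carries 31 probe sets for these genes, of which 30 passed the filter on low values, the exception being 1 of the 8 for Spred1. Each gene is given by its main probe set, the one of highest mean log2 signal, and all 10 main probe sets passed the filter.

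Signal intensity was measured on 8 single-colour Affymetrix arrays of mouse embryonic stem cells, 2 in each of 4 groups. The groups were Rex-1 knockout cells without LIF, Rex-1 knockout cells with LIF, J1 wild type cells without LIF and J1 wild type cells with LIF. Rex-1 is the zinc finger protein encoded by Zfp42, and LIF is the cytokine that keeps mouse embryonic stem cells undifferentiated through STAT3. All cells grew in serum medium on gelatin-coated dishes, and the strain field calls all of them J1. The time without LIF is given as 12 hours, in wording shared by every array. For the knockout cells without LIF the growth text speaks of added LIF, while the titles and treatment field say it was absent, and these were followed here. The number of knockout clones is not stated in these sources. The second array of each group has a letter r in its title with no stated meaning, and the arrays of a group are called biological replicates in the series text. No culture is named, so each p-value reflects only how far these arrays scatter, which may be technical.

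FGF4 is secreted by embryonic stem cells and acts back on them through FGF receptors, with heparan sulfate as a cofactor, to switch on RAS, RAF, MEK and ERK. In mouse embryonic stem cells this route is known for preparing cells to leave self-renewal, against the action of LIF. Active ERK raises the transcripts of its own inhibitors, the Sprouty and SPRED proteins and the dual-specificity phosphatases, and of the ETS factors ETV4 and ETV5, so these transcripts are widely used to read the activity of the route.

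The labelled cell type and the targeted gene were checked first. All 6 embryonic stem cell markers were measured, at mean log2 levels of 11.31 to 14.18, the last being Zfp42 itself. Zfp42 read 14.06 and 14.03 in arrays labelled knockout without LIF, 14.14 and 14.08 in arrays labelled knockout with LIF, 14.15 and 14.33 in J1 without LIF, and 14.17 and 14.51 in J1 with LIF. All 4 arrays labelled knockout were below all 4 J1 arrays, as in 1.74% of all probe sets, but the averaged difference was -0.21 (SE 0.16, limma adjusted p = 0.985). Whether the deletion takes in the bases this probe set reads is not stated in these sources, so it does not settle the labels, and KO below means an array labelled Rex-1 knockout. Socs3, a target and inhibitor of LIF signalling, had its 4 values without LIF below its 4 values with LIF, as in 1.33% of all probe sets. The Socs3 difference was -2.99 (SE 0.47) on the log2 scale (limma adjusted p = 0.701). Median signal ran from 114.2 to 143.5, and the second KO array with LIF stood apart with the highest median and 91.2% of probe sets at a log2 of 4 or more, against 85.2% to 87.4% elsewhere. The median gap between the arrays of a group was 0.27 log2 units for probe sets at 8 to 10 and 0.2 at 10 or above.

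None of the 10 genes passed the test of LIF withdrawal or of the line. With the Benjamini-Hochberg threshold of 0.05 in limma, 0% of the 43439 probe sets passed in each of the 7 contrasts: LIF withdrawal in KO, in J1 and averaged, KO against J1 without LIF, with LIF and averaged, and their interaction. The absence of calls among the members is therefore the same as in the background. At an unadjusted p under 0.05 there were 1748 probe sets for averaged LIF withdrawal and 2291 for the averaged line difference, and 0 of the 10 main probe sets in either. What follows gives the values, their intervals and their order on the arrays. Where both arrays of a group lay above or below both of another group, the share of all probe sets doing so was not counted. Such an order alone does not set a gene apart.

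**Figure D1:**
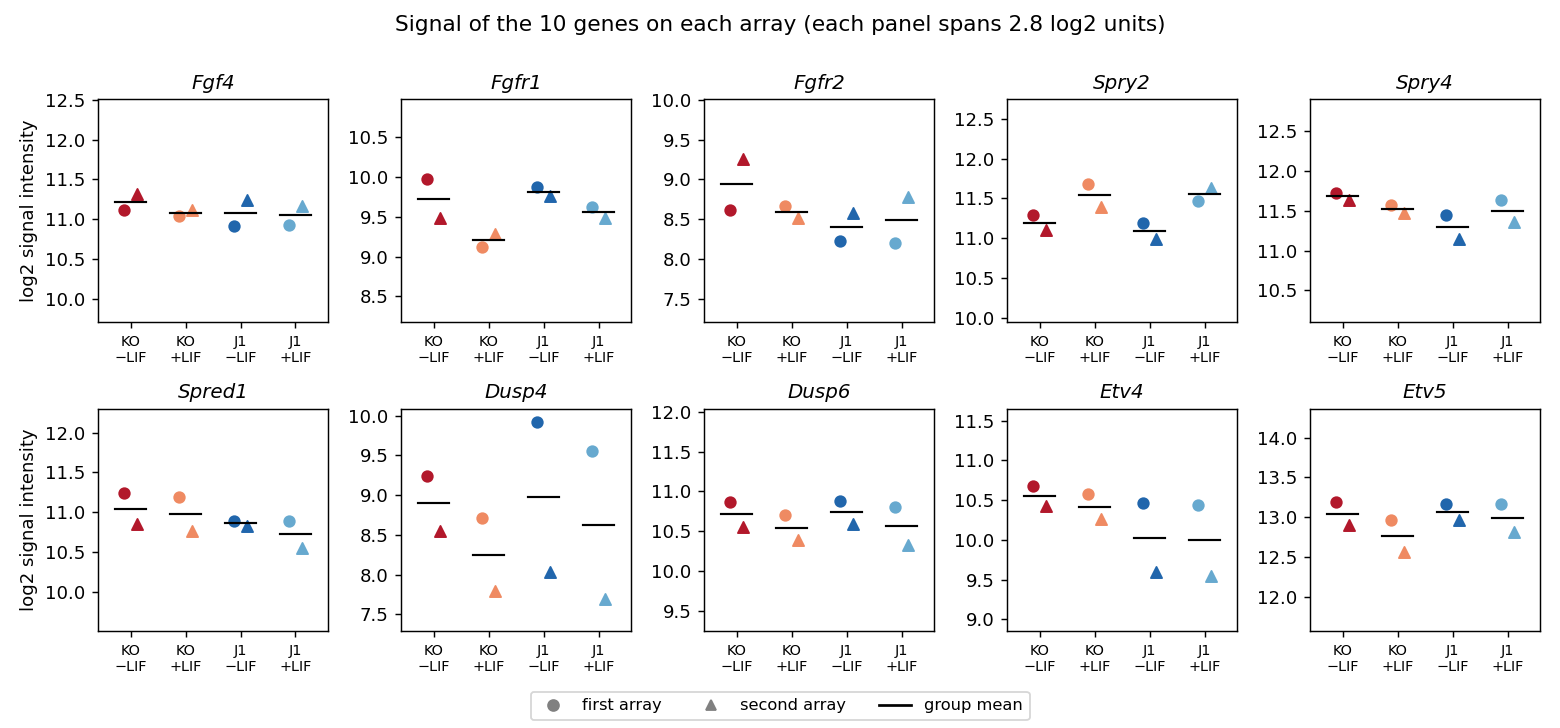
The log2 signal intensity of the main probe set of each of the 10 genes (vertical axis) is plotted for the first array (circles) and second array (triangles) of each group, with the group mean as a line; KO marks arrays labelled Rex-1 knockout. All panels span the same number of log2 units: Fgf4 stays between 10.91 and 11.32, while Dusp4 spreads from 7.69 to 9.92, mostly between first and second arrays.

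Fgf4, the ligand, varied little over the 8 arrays on its main probe set. Its log2 signal was 11.12 and 11.32 in KO without LIF, 11.04 and 11.11 in KO with LIF, 10.91 and 11.24 in J1 without LIF, and 10.93 and 11.16 in J1 with LIF. Over 4 against 4 arrays the values overlapped in both comparisons, and within KO both arrays without LIF lay just above both with it. Without LIF minus with LIF, the averaged difference was 0.09 (SE 0.17, 95% interval -0.34 to 0.52). KO minus J1 gave the same value and interval. With intervals of this width equality between the groups was not shown. A second Fgf4 probe set at a mean log2 of 11.02 differed by -0.01 (SE 0.17) for LIF and 0.09 (SE 0.17) for the line. Another Fgf4 probe set, at 9.37, gave -0.05 (SE 0.34) for LIF, with 0.25 in KO and -0.36 in J1 (SE 0.49 each), and 0.28 (SE 0.34) for the line. The dimmest Fgf4 probe set, at a mean log2 of 3.86, gave 0.32 (SE 0.97) for LIF and -0.39 (SE 0.97) for the line.

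Fgfr1, the FGF receptor that carries most of the signal in these cells, had the higher signal without LIF within each line, though it did not pass the test. It read 9.98 and 9.48 in KO without LIF against 9.12 and 9.29 in KO with LIF, and 9.87 and 9.76 in J1 without LIF against 9.63 and 9.48 in J1 with LIF. Within each line both arrays without LIF lay above both with LIF, an order whose share over all probe sets was not counted. The lines overlapped, since the second KO array without LIF (9.48) was below the first J1 array with LIF (9.63). The difference was 0.52 (SE 0.26) in KO and 0.26 (SE 0.26) in J1, and 0.39 (SE 0.19, 95% interval -0.07 to 0.86, limma adjusted p = 1) on average. The other Fgfr1 probe sets gave 0.37 (SE 0.29) and -0.19 (SE 0.27), so they did not share a direction. For the line the main probe set gave -0.22 (SE 0.19), and the others -0.01 (SE 0.29) and 0.53 (SE 0.27).

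Fgfr2, the receptor associated in the early embryo with primitive endoderm, had the second widest line difference. Its values were 8.62 and 9.26 in KO without LIF, 8.66 and 8.52 in KO with LIF, 8.22 and 8.58 in J1 without LIF, and 8.2 and 8.78 in J1 with LIF. The KO without LIF arrays were both above the J1 without LIF arrays, but with LIF the lines overlapped. KO minus J1 was 0.32 (SE 0.25, 95% interval -0.29 to 0.93), and another probe set at a mean log2 of 7.95 gave -0.37 (SE 0.24). LIF withdrawal gave 0.13 (SE 0.25), with values of 0.35 (SE 0.35) in KO and -0.09 (SE 0.35) in J1. Primitive endoderm markers, measured beside it, summed over 6 genes to a signal of 802 to 1159 in KO without LIF, 744 to 1086 in KO with LIF, 669 to 843 in J1 without LIF and 747 to 823 in J1 with LIF. Of these 6 markers 5 had a mean log2 under 8, and their part in the Fgfr2 values was not tested.

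Spry2, a Sprouty protein that restrains receptor signalling to ERK, was the member whose arrays separated by LIF. Its signal was 2503 and 2201 in KO without LIF against 3275 and 2688 in KO with LIF, and 2338 and 2034 in J1 without LIF against 2828 and 3175 in J1 with LIF. All 4 arrays without LIF lay below all 4 with it, as in 1.33% of all probe sets. On the log2 scale the arrays without LIF spanned 10.99 to 11.29, against 11.39 to 11.68 with LIF. The averaged difference was -0.40 (SE 0.17, 95% interval -0.82 to 0.02), or 1.32-fold lower without LIF (limma adjusted p = 1). The value was -0.34 (SE 0.24) in KO and -0.46 (SE 0.24) in J1, and -0.47 (SE 0.19) without the second KO array with LIF. A dimmer Spry2 probe set, at a mean log2 of 6.24, gave -0.80 (SE 0.27, limma adjusted p = 1) with overlapping arrays. For the line the main probe set differed by 0.05 (SE 0.17).

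The Spry2 promoter is shown because Spry2 was the only 1 of the 10 genes to separate by LIF. RefSeq promoter windows of 300 bases (GRCm38.p6) were matched for 6 of the 10 genes, with 7 entries: Fgf4, Fgfr2, Spry2, Spred1, Dusp6 and Etv5. They were searched on both strands for the ETS core CCGGAA, the type of site that ETV4 and ETV5 bind. The STAT palindrome TTCNNNGAA was searched in the same way. N stands for any base, so a STAT match can contain the ETS core, and the searches are not independent. The ETS core was in 1 of the 7 member windows, against 14.9% of 32851 windows in the genome table, and the STAT palindrome in 0 of 7, against 8.3%. The Spry2 match covers bases 284 to 289 of its window, past the transcription start, and stands in capitals in the 30 bases from chr14:105896770-105896799, minus strand. The other lines hold the 250 bases before the start of Spry2 (chr14:105896820-105897069, minus strand) and, for comparison, of Dusp6 (chr10:99262981-99263230, plus strand), whose window has no match to either motif. A match describes letters only.
Spry2 around the match: gaggtcatctatcCCGGAAtccgggagggt
Spry2 before the start: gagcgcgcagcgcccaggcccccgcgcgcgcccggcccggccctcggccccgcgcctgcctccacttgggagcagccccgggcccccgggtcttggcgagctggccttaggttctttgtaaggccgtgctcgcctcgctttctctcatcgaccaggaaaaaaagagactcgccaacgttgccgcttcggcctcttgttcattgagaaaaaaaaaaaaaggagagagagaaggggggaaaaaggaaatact
Dusp6 before the start: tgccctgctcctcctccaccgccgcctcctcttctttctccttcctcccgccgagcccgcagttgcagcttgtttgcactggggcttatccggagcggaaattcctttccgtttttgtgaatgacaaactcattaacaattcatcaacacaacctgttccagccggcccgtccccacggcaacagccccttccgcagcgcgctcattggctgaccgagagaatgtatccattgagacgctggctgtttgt

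Spry4, the other Sprouty gene, did not share the LIF pattern of Spry2 on its main probe set. It read 11.72 and 11.64 in KO without LIF, 11.57 and 11.47 in KO with LIF, 11.45 and 11.15 in J1 without LIF, and 11.64 and 11.36 in J1 with LIF. In KO both arrays without LIF were above both with LIF, while in J1 they overlapped. LIF withdrawal gave 0.16 (SE 0.24) in KO and -0.20 (SE 0.24) in J1, an interaction of 0.36 (SE 0.34, adjusted p = 1), and -0.02 (SE 0.17, 95% interval -0.44 to 0.40) on average. The 3 other Spry4 probe sets gave averages of -0.11, -0.21 and -0.40, none past the test. KO minus J1 was 0.20 (SE 0.17), and the other probe sets gave 0.18, 0.39 and 0.06.

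Spred1, an inhibitor of RAS activation of RAF, had its highest values on first KO arrays. Its log2 signal was 11.24 and 10.85 in KO without LIF, 11.19 and 10.77 in KO with LIF, 10.89 and 10.83 in J1 without LIF, and 10.89 and 10.55 in J1 with LIF. KO minus J1 was 0.22 (SE 0.20, 95% interval -0.28 to 0.72), and the 6 other tested probe sets of the gene were also higher in KO, by 0.06 to 0.65. The smallest p among them was 0.0473, for a difference of 0.37 (SE 0.15), with a limma adjusted p of 0.941. Probe sets of 1 gene share its transcript and are not replicates. LIF withdrawal gave 0.10 (SE 0.20).

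Dusp4, a nuclear phosphatase of ERK, was the most variable member. Its signal was 605 and 376 in KO without LIF, 420 and 222 in KO with LIF, 967 and 261 in J1 without LIF, and 750 and 206 in J1 with LIF. The first array exceeded the second in every group, and no group stood clear of another. The averaged difference was 0.50 (SE 0.62, 95% interval -1.05 to 2.05) for LIF withdrawal and -0.22 (SE 0.62, 95% interval -1.77 to 1.33) for KO minus J1. Within first arrays KO minus J1 averaged -0.76, and within second arrays 0.31, so the line difference had no single direction. LIF withdrawal averaged 0.45 within first arrays and 0.55 within second arrays.

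Dusp6, the cytoplasmic ERK phosphatase whose transcript is a common readout of FGF signalling, was closely held. It read 10.87 and 10.55 in KO without LIF, 10.7 and 10.39 in KO with LIF, 10.88 and 10.59 in J1 without LIF, and 10.8 and 10.33 in J1 with LIF. The lines were almost superimposed, with KO minus J1 at -0.02 (SE 0.21, 95% interval -0.54 to 0.49). LIF withdrawal gave 0.17 (SE 0.21, 95% interval -0.35 to 0.69), with 0.16 in KO and 0.17 in J1 (SE 0.29 each).

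Etv4, an ETS transcription factor induced by FGF, had the widest averaged line difference of the 10 genes. Its log2 signal was 10.68 and 10.43 in KO without LIF, 10.58 and 10.26 in KO with LIF, 10.46 and 9.6 in J1 without LIF, and 10.44 and 9.55 in J1 with LIF. The second J1 arrays were the low ones, and the first J1 arrays overlapped the KO arrays. KO minus J1 was 0.48 (SE 0.31, 95% interval -0.29 to 1.24, limma adjusted p = 0.985), averaging 0.19 within first arrays and 0.77 within second arrays. A second Etv4 probe set gave 0.47 (SE 0.23). LIF withdrawal gave 0.09 (SE 0.31).

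Etv5, its close relative, did not share the line value of Etv4. It read 13.19 and 12.9 in KO without LIF, 12.96 and 12.56 in KO with LIF, 13.16 and 12.96 in J1 without LIF, and 13.17 and 12.81 in J1 with LIF. The lowest array was the second KO array with LIF. KO minus J1 was -0.12 (SE 0.20), and LIF withdrawal gave 0.18 (SE 0.20, 95% interval -0.31 to 0.67). The 2 other Etv5 probe sets gave LIF values of -0.07 and 0.03.

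**Figure D2:**
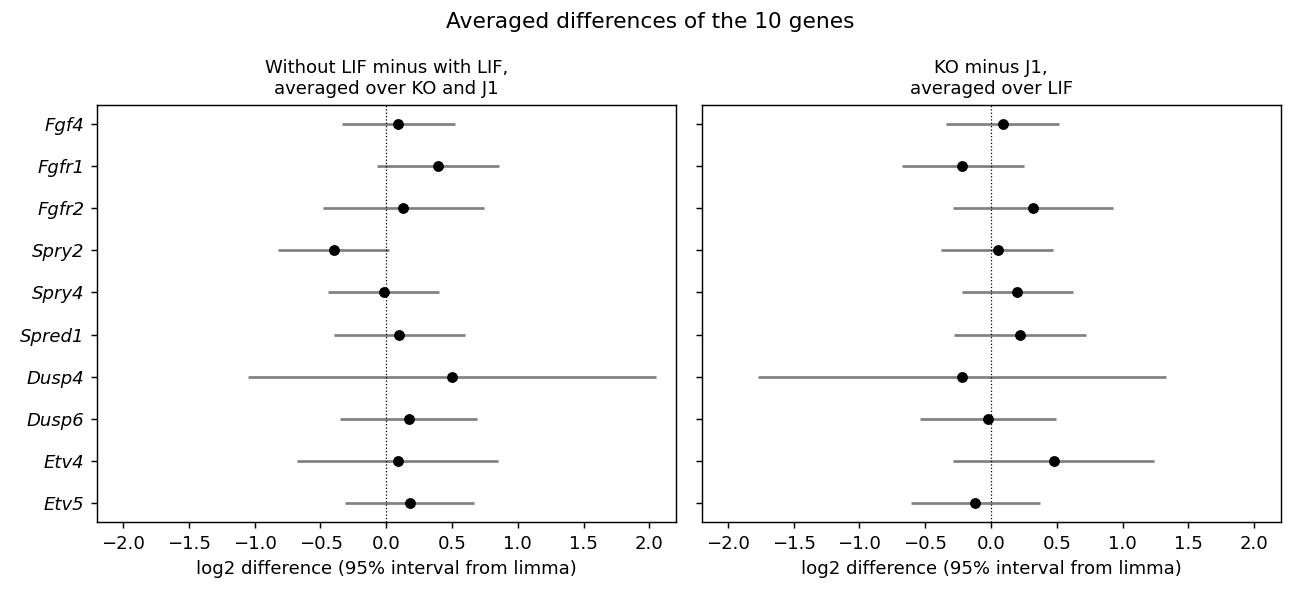
Points show the averaged log2 difference of each gene and lines its 95% interval from limma, for without LIF minus with LIF (left) and for KO minus J1 (right), with n = 4 arrays a side. Every interval spans 0 in this fit, which does not use the letter r as a block. Spry2 (-0.40) is the lowest for LIF withdrawal, and Dusp4 has the widest interval in both panels.

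Counted over the 10 genes, averaged LIF withdrawal gave 8 higher and 2 lower values, with a median of 0.11 against -0.01 over the 17836 genes tested. In KO 9 were higher and 1 lower, with a median of 0.16, and in J1 7 were higher and 3 lower, with a median of 0.05. Over all 30 tested probe sets the split was more even, with 18 higher and 12 lower on average, 17 and 13 in KO, and 18 and 12 in J1. The feedback genes did not move as 1 group: Spry2 was lower, Spry4 near 0, and Spred1, Dusp4, Dusp6, Etv4 and Etv5 were between 0.09 and 0.50 higher, none of them past the test. For KO minus J1, 6 were higher and 4 lower on average, with a median of 0.07 against 0.01 over all genes. Over all 30 probe sets 22 were higher and 8 lower, and 7 of these 22 were Spred1 probe sets, which share a transcript. Without LIF the split was 6 to 4 (median 0.13), and with LIF 5 to 5 (median 0.00). The interaction values ran from -0.07 for Spred1 to 0.44 for Fgfr2 (SE 0.49), and 0 passed.

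Since first and second arrays differed, LIF withdrawal was also read within first arrays and within second arrays of each line, 4 comparisons a gene. Spry2 was lower in 4 of 4, by -0.39 and -0.29 in KO and -0.27 and -0.64 in J1; 8.04% of all probe sets were lower in all 4. Fgfr1, Dusp4, Dusp6 and Etv4 were higher in 4 of 4, where 7.56% of probe sets were. The Fgfr1 values were 0.86 and 0.18 in KO and 0.25 and 0.28 in J1, and those of Dusp4 were 0.53 and 0.76 in KO and 0.37 and 0.34 in J1. Dusp6 (0.08 to 0.27) and Etv4 (0.02 to 0.17) had small values of this kind. No test was made of these 4 genes as a set, and 1.02% of probe sets, with 0 of the 10 genes, had all 4 arrays without LIF above all 4 with it.

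**Figure D3:**
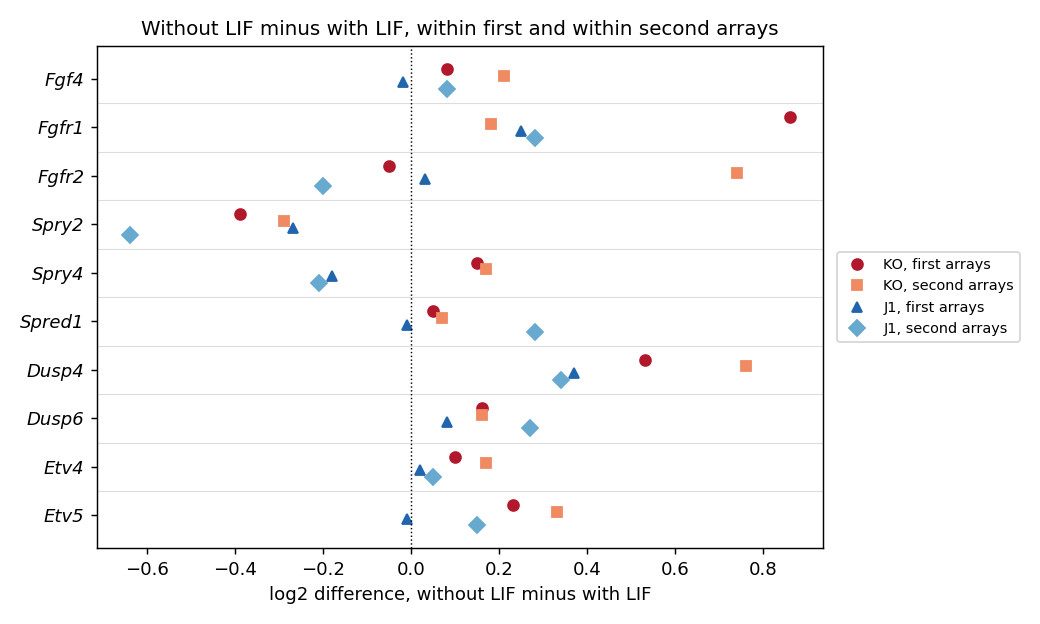
Each symbol is the log2 difference without LIF minus with LIF (horizontal axis) between first arrays or between second arrays of KO or J1 cells, for each of the 10 genes. All 4 symbols of Spry2 lie below 0 (-0.64 to -0.27) and all 4 of Fgfr1, Dusp4, Dusp6 and Etv4 above it.

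For the line, 0 of the 10 main probe sets had all 4 KO arrays above all 4 J1 arrays or all below, against 2.1% and 1.74% of all probe sets. Among all 30 tested probe sets of the genes, 3 were higher in all 4 KO arrays and 0 lower. They were 2 of Spred1, at 0.49 (SE 0.20) and 0.37 (SE 0.15), and 1 of Spry4, at 0.39 (SE 0.21), with limma adjusted p of 0.941 to 0.985. Within first and within second arrays, Spred1 was higher in KO in 4 of 4 comparisons (0.02 to 0.35) and Etv4 in 4 of 4 (0.15 to 0.82), as were 9.19% of probe sets. Lower in 4 of 4 were 0 of the 10 genes and 8.09% of probe sets.

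The main probe sets of Dusp4, Dusp6, Etv4 and Etv5 differed more between the 2 arrays of a group than by LIF or by line. Second minus first, Dusp4 was -0.69 in KO without LIF, -0.92 in KO with LIF, -1.89 in J1 without LIF and -1.86 in J1 with LIF. Etv4 followed the same order, with -0.26 and -0.33 in KO and -0.85 and -0.89 in J1. Dusp6 ran from -0.48 to -0.29 and Etv5 from -0.39 to -0.20, with no such split between the lines. Among main probe sets, 6 of 10 were lower on the second array in every group (Spry4, Spred1, Dusp4, Dusp6, Etv4 and Etv5), 1 was higher (Fgf4) and 3 were mixed. Other probe sets of these genes often did not share this, and over all 30 tested 8 were lower in every group, 5 higher and 17 mixed. An Etv5 probe set at a mean log2 of 11.67 lay between -0.03 and 0.09, a Spry4 probe set at 10.52 between -0.11 and 0.13, and the second Etv4 probe set between -0.35 and 0.68. Of the 7 tested Spred1 probe sets 3 were lower in every group, 1 was higher and 3 were mixed, while Dusp4 and Dusp6 have 1 probe set each. Over all probe sets 11.2% were lower and 16.7% higher in all 4 groups, and at a mean log2 of at least 8, where all 10 genes lie, 21.1% were lower and 21.1% higher.

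A limma fit of second against first arrays, chosen after these differences were seen, called 0% of all probe sets (6298 at an unadjusted p under 0.05) and 12.3% of the 14892 at a mean log2 of at least 8. At that level Dusp4 fell by 1.34 on the log2 scale (adjusted p = 0.0249), Etv4 by 0.58 (adjusted p = 0.0451) and Dusp6 by 0.35 (adjusted p = 0.0458) in the second arrays. Over all probe sets their adjusted p were 0.294, 0.313 and 0.335. The calls of Dusp6 and Etv4 ended when any single array was left out (adjusted p 0.0693 to 0.165 and 0.0696 to 0.17), and that of Dusp4 ended without any 1 array of KO without LIF or of J1 with LIF (0.0598 to 0.125). With quantile normalization at that level Dusp4 (adjusted p = 0.026) kept its call, Dusp6 (0.053) and Etv4 (0.057) did not, and Etv5 was called (0.04). Without it Etv5 (adjusted p = 0.0572) and Spred1 (0.0825) were not called. With a trended and robust prior over all probe sets limma called Dusp4 (adjusted p = 0.0106), Etv5 (0.0299), Etv4 (0.0306) and Dusp6 (0.0483).

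**Figure D4:**
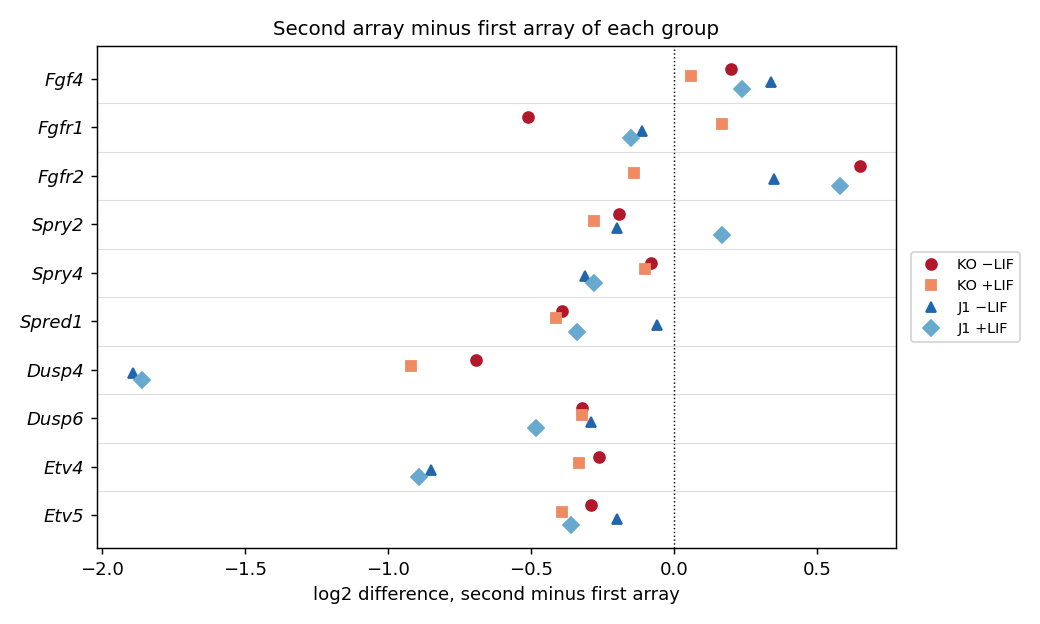
Each symbol is the log2 signal of the second array minus that of the first (horizontal axis) in 1 of the 4 groups, for each of the 10 genes. Dusp4 reaches -1.89 in J1 without LIF, Fgf4 lies above 0 in all 4 groups, and Spry4, Spred1, Dusp4, Dusp6, Etv4 and Etv5 lie below it.

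The summed signal of fibroblast or feeder markers (7 of 7 measured, 0 listed at 0) moved with these array differences in J1. Their summed signal on the first and second array was 2790 and 1868 in KO without LIF, 2585 and 1950 in KO with LIF, 10796 and 1233 in J1 without LIF, and 10719 and 1731 in J1 with LIF. The first J1 arrays, where Dusp4 was highest, thus had the highest sums. Of these 7 markers 4 had a mean log2 under 8, and a sum weighs the brighter ones more. In 3 of the 7 the second array was lower in every group, and the part of these markers in the Dusp4 and Etv4 values was not tested. In bulk RNA, fewer cells of a type and less RNA per cell cannot be told apart.

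The other genes of the pathway were counted in 4 lists, and 0 of them passed the test in either averaged contrast. Of 21 other FGF ligands and receptors, 10 were higher and 11 lower without LIF (median -0.05), and 13 higher and 8 lower in KO (median 0.12). Fgf13, an intracellular FGF relative, was higher in all 4 arrays without LIF, by 0.43 (SE 0.17), as were 1.02% of all probe sets. Fgf17, a secreted ligand, gave -0.36 (SE 0.19) with overlap. The decoy-type receptor Fgfrl1 gave 0.15 (SE 0.24), and Fgf5, the marker ligand of primed epiblast, stayed at a mean log2 of only 4.16. For the line, Fgf18 was lower in all 4 KO arrays, by -0.51 (SE 0.16), as were 1.74% of all probe sets. Fgfr4 was higher in all 4 KO arrays, by 0.61 (SE 0.19), as were 2.1%.

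Of 16 measured members of the RAS to ERK cascade, 9 were higher and 7 lower in each contrast, with a median of 0.03 in both. The MEK gene Map2k2 gave 0.32 (SE 0.22) for LIF withdrawal, the RAS exchange factor Sos2 0.28 (SE 0.30) and the RAF kinase gene Braf 0.26 (SE 0.20). Rps6ka3, a kinase activated by ERK, was higher in all 4 KO arrays, by 0.39 (SE 0.17, limma adjusted p = 0.96), as were 2.1% of all probe sets. For the line the adaptor Frs3 gave 0.30 (SE 0.19), and Grb2, another adaptor, 0.19 (SE 0.15). Of 14 genes for heparan sulfate synthesis and co-receptors, 10 were higher and 4 lower without LIF (median 0.05), and 8 higher and 6 lower in KO (median 0.03). At a mean log2 of at least 8 their widest values were -0.31 (SE 0.32) for the glypican Gpc3, 0.21 (SE 0.24) for the sulfotransferase Hs6st1 and 0.14 (SE 0.18) for the polymerase subunit Ext1, all for LIF withdrawal, and for the line -0.25 (SE 0.32) for Gpc3, 0.22 (SE 0.31) for Gpc4 and 0.15 (SE 0.48) for the syndecan Sdc4.

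Among 22 further ERK feedback and target genes, 10 were higher and 12 lower without LIF (median -0.04). The immediate early genes Ier2 and Fos were lower in all 4 arrays without LIF, by -0.35 (SE 0.16) and -0.64 (SE 0.32), and so was the phosphatase Dusp2, by -0.62 (SE 0.18), named after its values were seen. Il17rd, a membrane inhibitor of FGF signalling, was higher in all 4, by 0.29 (SE 0.16). Of the 22 genes 3 were thus lower in all 4 arrays without LIF, against 1.33% of all probe sets, and 1 higher, against 1.02%. The list was chosen with earlier results known, and no test was made of it as a set. Ier3 gave -0.68 (SE 0.41), Hbegf -0.53 (SE 0.53), the phosphatase Dusp9 0.33 (SE 0.19) and Spry1 0.17 (SE 0.23), all with overlap. In KO 4 of the 22 were higher and 18 lower, with a median of -0.15 against 0.01 over all genes. The widest at a mean log2 of at least 8 were Ier5 at -0.59 (SE 0.27), Egr1 at -0.54 (SE 0.42) and Dusp1 at -0.46 (SE 0.43). Dusp1 was high only on the first J1 arrays (11.09 and 11.11), against 9.74 and 9.84 on the second and 9.75 to 10.20 in KO. Ier5 read 8.69 and 8.90 on the first J1 arrays, 8.28 and 8.02 on the second, and 7.67 to 8.15 in KO. Egr1 was lowest on the second KO array without LIF (8.37). The split of 4 to 18 was not counted within first and within second arrays. Dusp5, a nuclear ERK phosphatase singled out after its values were seen, read 6.71 and 5.91 in KO without LIF, 5.52 and 5.61 in KO with LIF, 9.14 and 7.86 in J1 without LIF, and 8.74 and 7.8 in J1 with LIF. All 4 KO arrays were below all 4 J1 arrays, as in 1.74% of all probe sets, and the difference was -2.45 (SE 0.40, limma adjusted p = 0.652). In 10 of these 22 genes the second array was lower in all 4 groups and in 0 it was higher. Over all probe sets 11.2% were lower and 16.7% higher, and at a mean log2 of at least 8 21.1% were lower and 21.1% higher. The median second minus first difference of the 22 genes was -0.42. The medians were 0.09 for the FGF list, -0.03 for the cascade and -0.11 for the heparan sulfate list.

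Genes whose pattern over the 8 arrays was nearest to a member were found by the root mean square difference of mean-centred log2 values among 8355 candidates. For Fgf4 they were Aldh7a1 (0.04), Ube2t (0.04) and Psrc1 (0.05), where Fgf4 itself varied by a root mean square of 0.13. For Spry4 they were Hint2 (0.05), Ccdc107 (0.07) and Gtf3a (0.07), against 0.17, and for Dusp6 Ppp3cb (0.05), Marchf5 (0.06) and Yipf4 (0.06), against 0.2. None of these is a gene of the pathway lists.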

How the data were processed

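RNA was measured on 8 arrays in 4 groups. The authors deposited linear signal intensity per probe set; per the submitters' processing notes GCRMA was named, with no role or version, and the step that made linear values is not known. Gene symbols come from the platform annotation, in which 34945 probe sets have 1 symbol, 932 several and 9160 none listed.

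From the deposited intensity, log2 was taken with no pseudocount, 64 control probe sets were left out, and the filter on low values kept 43439 of 45037 probe sets, those reaching a log2 of 4 on 2 or more arrays. The model, run with limma 3.58.1 (R 4.3.3), gave each group its own mean and used every array (4 residual and 1.67 prior degrees of freedom), with Benjamini-Hochberg adjustment over all 43439 within each contrast. The fit was tested on simulated data. Figures used matplotlib 3.10.9 in Python 3.11.15. No depth exists for arrays, and their number limits the precision; background was not deducted here.

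The 10 genes, the pathway lists and the tests were chosen with earlier results of these data known. Named from the lists were at most 3 genes of widest change per list and averaged contrast whose mean log2 reached 8. The rule also named Fgf5, Spry1, Dusp9, Il17rd, Egr1, Fos and Grb2. Dusp2, Dusp5, Fgf18 and Fgfr4 were named outside this rule, after their values were seen. Other dim list genes with wide line values, such as Klb (1.38, SE 0.31) and Spry3 (-1.29, SE 0.22), were not described. Alternatives covered the filter, normalization, offset, variance prior, probe set per gene, the letter r as a block, and each array left out. The RefSeq promoters of Fgfr1, Spry4, Dusp4 and Etv4 were not analysed here.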

Additional observations from a re-analysis of the deposited data

How the results depend on the processing

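The 20 averaged values of the 10 genes (LIF withdrawal and line) were recomputed 320 times under the alternatives. Of these, 298 kept their direction with no test passed, 22 reversed, and the smallest adjusted p from limma was 0.226. Changing only a filter on level, the variance prior or the block could not move a difference, so those agreements were fixed in advance. With the mean of all probe sets of a gene, Spred1 without LIF was -0.01 and Fgfr1 in KO 0.10. The other 20 reversals came with an array left out, where values near 0 ranged as follows. For LIF withdrawal, Fgfr2 ranged from -0.03 to 0.29, Spry4 from -0.09 to 0.06, Spred1 from -0.01 to 0.20 and Etv4 from -0.14 to 0.31; for the line, Spry2 ranged from -0.03 to 0.12, Dusp4 from -0.69 to 0.25 and Dusp6 from -0.14 to 0.10. Spry2 ranged from -0.47 to -0.33 for LIF withdrawal. Its separation by LIF could not end when an array was left out, so this was no check of it. With an array left out, genes higher without LIF in every remaining comparison within first and within second arrays numbered 4 to 7. The count was 7 without the first J1 array without LIF or the first J1 array with LIF. An array left out takes away 1 comparison, so the count could not fall below 4. Probe sets called for the averaged line difference numbered 1 with a trended and robust prior, against 0. The letter r was not taken as a pairing, since the titles do not explain it. Second minus first differences correlated between groups at 0.0496 to 0.198 over 43439 probe sets. At a mean log2 of at least 8, where all 10 main probe sets lie, they correlated at 0.236 to 0.638. The low values over all probe sets therefore do not show that first and second arrays are unrelated across groups for these genes. With it as a replicate block, 0 probe sets were called; with the block and a mean log2 of at least 8, 23 were called for the averaged line difference, 0 of them main probe sets of the 10 genes, 4 for the line without LIF and 3 with LIF. That fit narrowed the SE of the members, for Dusp6 to 0.08 against 0.21, so the intervals given depend on leaving the block out. For LIF withdrawal it gave Spry2 at -0.40 (SE 0.10 against 0.17, limma adjusted p = 0.479). Fgfr1 was at 0.39 (SE 0.12 against 0.19, limma adjusted p = 0.555). No intervals were computed with the block, so those of Spry2 and Fgfr1 are shown to span 0 only without it. Second against first arrays gave 1837 calls at a mean log2 of at least 8 and 1966 with a trended and robust prior over all probe sets, against 0; leaving out an array moved the count of 1837 to between 0 and 1615, with 0 without either J1 array with LIF, 4 without either KO array without LIF, and 456 or 462 without a KO array with LIF. The cause was not tested.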
